A study of Homo sapiens with 6 samples.

Results

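The genes described here encode the kinase UHMK1, its substrate SF1, and splicing proteins that carry or bind a U2AF homology motif. They were chosen by name: UHMK1, SF1, U2AF1, U2AF2, PUF60, RBM17, RBM39, RBM23 and SF3B1. All 9 were measured, out of 33616 genes tested. Gene expression was read on 6 Affymetrix arrays from HepG2, a human liver cancer cell line, 24 h after transfection with 30 nM siRNA. The cells of 3 arrays had received a scrambled siRNA (the NTC of the labels) and those of the other 3 an siRNA against UHMK1 (siU). Both groups went through the same RNAiMAX transfection, and no label gives the sequence of either siRNA, so effects of losing UHMK1 and effects of this siRNA on other transcripts cannot be told apart. The labels do not tell whether these were separate cultures. The p-values therefore reflect the spread between the samples as deposited, which may be technical.

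A U2AF homology motif (UHM) is a variant of the RNA recognition motif that binds a short peptide, the UHM ligand motif (ULM), in place of RNA. These contacts assemble the complex that marks the end of an intron. SF1 binds the branch point, the large U2AF subunit U2AF2 holds SF1 through its UHM and binds the polypyrimidine tract, and the small subunit U2AF1 reads the AG at the intron's end. SF1 is later replaced by SF3B1 of the U2 small nuclear ribonucleoprotein (snRNP), whose ULMs are bound by several UHM proteins. UHMK1, also called KIS, is a protein kinase with a UHM of its own. It is known for phosphorylating SF1, which strengthens the hold of U2AF2 on SF1. Kinase action on proteins is not visible in transcript levels.

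Levels are deposited log2 values per probe set, so a difference of 1 is a doubling on the deposited scale. Levels of different genes were not compared as amounts of transcript. They were used to sort genes by brightness, to describe markers and to take differences of gene pairs within an array. A change is the mean log2 level after UHMK1 siRNA minus that after scrambled siRNA. A gene rose or fell where limma's Benjamini-Hochberg adjusted p over all genes tested was under 0.05. By that rule 2.67% of all genes tested fell and 0.726% rose. The 7 measured hepatocyte markers of 8, such as ALB, AFP and TTR, had mean log2 levels of 14.01 to 18.84 after scrambled siRNA, so genes typical of liver cells were well detected. Among 16 markers of immune, endothelial, fibroblast and biliary cells, SPP1, SOX9, CD68 and COL1A1 lay above a mean log2 level of 8 and the other 12 between 3.56 and 6.44. Of the 23 markers measured, 0 passed in limma and 1, FGB, had an unadjusted p under 0.05. UHMK1 siRNA array 2 stood apart from the rest. Genes brighter than a mean log2 level of 8 numbered 8865, and their median deviation from the control mean was -0.25 on that array, -0.03 on UHMK1 siRNA array 1 and -0.06 on array 3.

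UHMK1 was the only one of the 9 genes that passed the test, and it fell. This is 11.1% of the 9, beside the 2.67% of all genes tested, and it is the gene the siRNA targets. Its log2 levels were 11.42, 11.24 and 11.74 after scrambled siRNA and 8.36, 7.80 and 7.94 after UHMK1 siRNA. Every array of the siRNA group lay below every control array. The transcript fell by 3.43 on the log2 scale (SE 0.20, limma adjusted p = 0.000112), which left 9.26% of the signal. The fall held on any 5 arrays, with changes from -3.60 to -3.30. UHMK1 was read by 1 probe set, so no independent reading of the transcript was at hand.

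**Figure D1:**
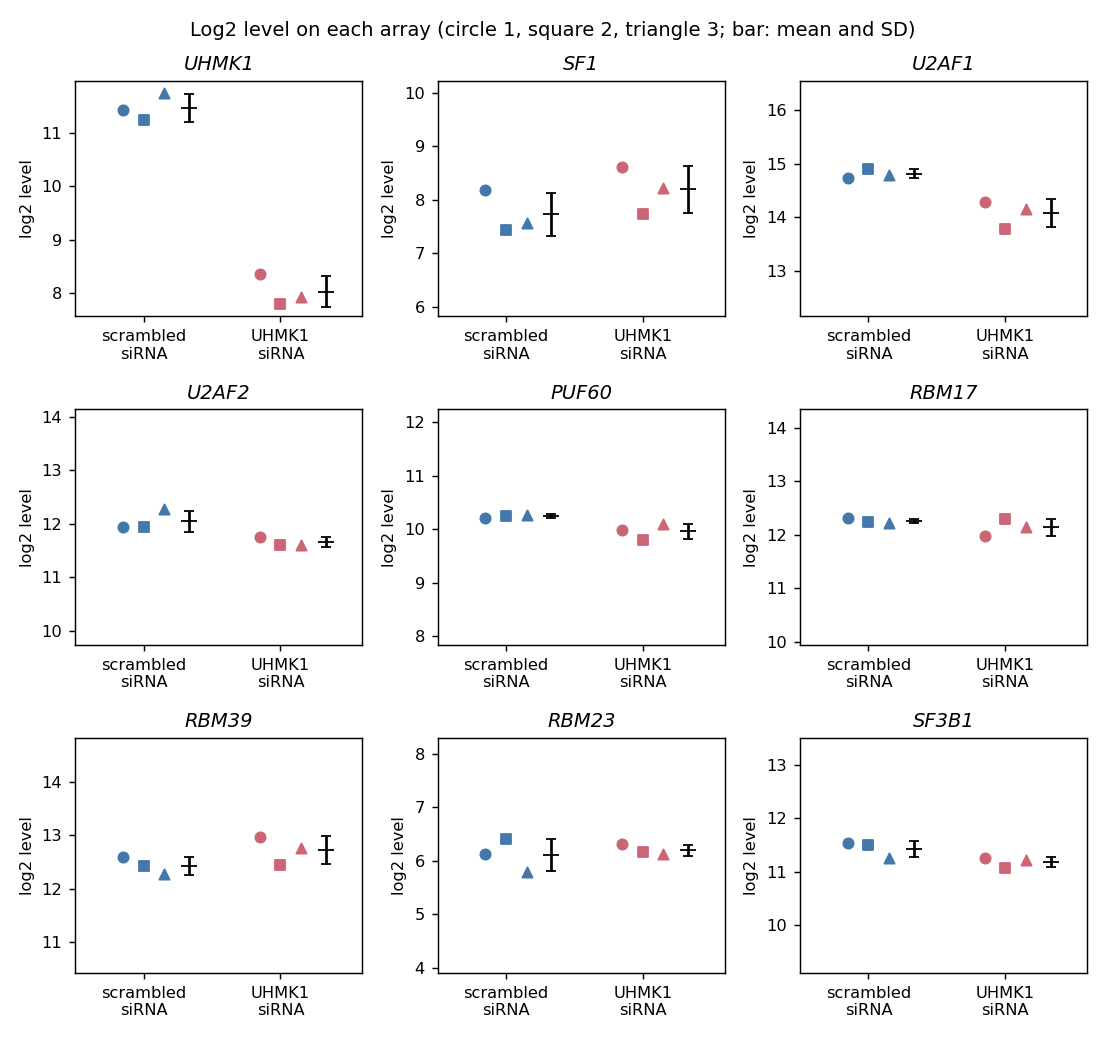
Log2 level (vertical axis) of the 9 genes on the scrambled siRNA arrays (blue) and the UHMK1 siRNA arrays (red), with the mean and SD of each group of 3 as black bars. All panels span the same number of log2 units, and UHMK1 and U2AF1 show the widest gaps between groups.

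The mean levels of the other 8 genes lay within 0.74 log2 units of the control. Changes were negative for 6 of the 9 genes and positive for 3, beside 18210 negative and 15406 positive over all 33616 genes tested. The median of the 9 was -0.25, beside -0.02 over all genes tested. It was -0.11 over the genes whose mean log2 level exceeded 8, as that of 7 of the 9 did. In 4 of the 9, or 44.4%, the UHMK1 siRNA arrays lay wholly below the controls: UHMK1, U2AF1, U2AF2 and PUF60. Such a gap downward occurred in 13.3% of all genes tested and in 30.0% of those above 8. UHMK1, the gene the siRNA targets, is counted in this 44.4%, in the negative changes and in the median of the 9. A gap upward occurred in 0 of the 9 and in 7.74% of all genes tested.

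U2AF1, the small U2AF subunit that reads the AG at the end of the intron, came nearest to the threshold after UHMK1. Its log2 levels were 14.74, 14.91 and 14.80 after scrambled siRNA and 14.29, 13.79 and 14.16 after UHMK1 siRNA. The groups did not overlap, and UHMK1 siRNA array 2 was the lowest. The change was -0.74 (SE 0.17, 95% confidence interval -1.12 to -0.35), or 60.0% of the control signal, with an adjusted p = 0.0533. A second U2AF1 probe set read 12.90, 13.05 and 12.97 after scrambled siRNA and 12.36, 12.19 and 12.51 after UHMK1 siRNA. It gave a change of -0.62 (SE 0.17), and its groups did not overlap either. Changes of such second probe sets, here and for other genes, come from a fit over all 135750 probe sets, where this one had an adjusted p = 0.292 and the first an adjusted p = 0.256. Both probe sets may bind a near-identical copy of the gene that the RefSeq assembly lists (LOC102724594, also U2AF1L5), so they are not separate observations and do not tell the copies apart.

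Whether U2AF1 passed depended on the settings. It passed after cyclic loess normalization (-0.71, adjusted p = 0.0411), with only genes of a mean log2 level of at least 6 tested (adjusted p = 0.0149), with a variance trend and robust estimation (adjusted p = 0.00970) and with array weights (-0.65, adjusted p = 0.0400). Over all 10 other settings its adjusted p ranged from 0.00970 to 0.256. With 1 array left out it passed 0 of 6 times, at changes from -0.84 to -0.59, the smallest being without UHMK1 siRNA array 2 (adjusted p = 0.0897). Among the 473 genes within 0.5 log2 units of the mean level of U2AF1, the median change was -0.10 and 8.67% fell. On UHMK1 siRNA array 2 these genes had a median deviation of -0.21 from their control mean.

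U2AF2, the large subunit with the UHM that holds SF1, read 11.93, 11.94 and 12.27 after scrambled siRNA and 11.76, 11.60 and 11.61 after UHMK1 siRNA. The groups did not overlap, but their nearest arrays lay close to each other. The change was -0.39 (SE 0.16, 95% confidence interval -0.75 to -0.03, adjusted p = 0.275). A dimmer probe set with the symbol U2AF2 but no Entrez gene ID, which may read another locus, read 8.68, 8.22 and 8.19 against 8.35, 7.28 and 7.68, so its groups overlapped, with a change of -0.59 (SE 0.28).

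SF1, the substrate of the kinase and binder of the branch point, did not pass. Its log2 levels were 8.18, 7.43 and 7.57 after scrambled siRNA and 8.61, 7.74 and 8.23 after UHMK1 siRNA. The spread within each group, with SDs of 0.40 and 0.44, was close to the difference between them, and the groups overlapped. The change of 0.47 (SE 0.26, 95% confidence interval -0.13 to 1.06, adjusted p = 0.468) had the largest standard error of the 9. That probe set carries the symbol SF1 but no Entrez gene ID, so it may read another locus. The SF1 probe set that carries the ID read 7.32, 7.89 and 7.86 against 7.79, 7.98 and 7.64, a change of 0.11 (SE 0.21). Neither reading showed SF1 transcripts to differ, and a change of up to 2-fold upward lay within the interval of the first.

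SF3B1, the U2 snRNP subunit whose ULMs bind UHM proteins, read 11.53, 11.50 and 11.25 after scrambled siRNA and 11.25, 11.07 and 11.22 after UHMK1 siRNA. The groups touched at 11.25. The change was -0.25 (SE 0.15, 95% confidence interval -0.59 to 0.10, adjusted p = 0.511). A second, dimmer probe set with the symbol but no Entrez gene ID, which may read another locus, stood at 0.55 (SE 0.33), and its reading of 9.18 on UHMK1 siRNA array 2 stood above its other UHMK1 siRNA readings of 7.92 and 8.05. The mean of both gave 0.15 (adjusted p = 0.797), a value limited by the same doubt.

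PUF60, a UHM protein that can act beside U2AF2 at weak intron ends, read 10.20, 10.25 and 10.27 after scrambled siRNA and 9.98, 9.80 and 10.09 after UHMK1 siRNA. The control arrays lay close together, all above the siRNA arrays. Its change was -0.28 (SE 0.15, 95% confidence interval -0.61 to 0.05, adjusted p = 0.417). The 1540 genes of like brightness had a median change of -0.13.

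RBM17, also called SPF45, binds SF3B1 through its UHM and takes part in alternative splicing. It read 12.31, 12.25 and 12.23 after scrambled siRNA and 11.98, 12.30 and 12.15 after UHMK1 siRNA. The groups overlapped, and its change of -0.12 (SE 0.15, 95% confidence interval -0.46 to 0.22, adjusted p = 0.786) was near that of the 1098 genes of like brightness, with a median of -0.12.

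RBM39, a UHM protein and the target of aryl sulfonamide degraders, was one of the 3 genes with a positive difference. It read 12.60, 12.42 and 12.27 after scrambled siRNA and 12.97, 12.44 and 12.76 after UHMK1 siRNA, with UHMK1 siRNA array 2 inside the control range. The change was 0.29 (SE 0.18, 95% confidence interval -0.11 to 0.70, adjusted p = 0.512). RBM23, its paralog, lay low on the scale, with a mean over 6 arrays of 6.15. It read 6.13, 6.40 and 5.79 after scrambled siRNA and 6.31, 6.16 and 6.12 after UHMK1 siRNA, all within the control range. Its change was 0.09 (SE 0.18, 95% confidence interval -0.32 to 0.50, adjusted p = 0.880), and it was -0.068 without scrambled siRNA array 3.

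**Figure D2:**
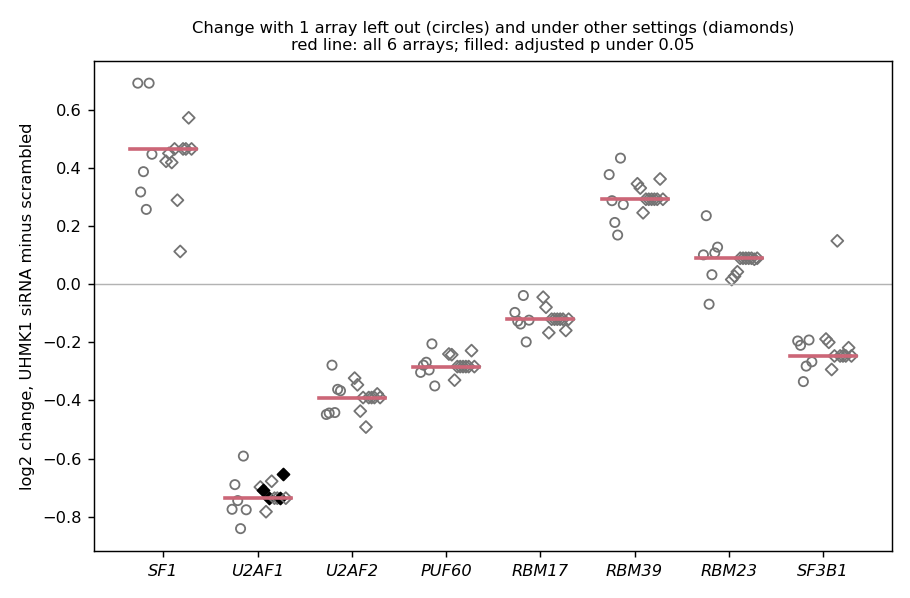
Log2 change (vertical axis) of the 8 genes other than UHMK1 on all 6 arrays (red line), with 1 array left out (circles) and under 10 other settings (diamonds), filled where the adjusted p was under 0.05. Filled points occur for U2AF1 alone, and RBM23 and SF3B1 each have a point on the other side of 0.

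Proteins that meet through UHM and ULM contacts, or that are paralogs, were compared by the difference of their log2 values within each array. This was done for 5 pairs, chosen after the values were seen. The difference between U2AF1 and U2AF2, set to a mean of 0 in the controls, was 0.04, 0.20 and -0.24 in the controls against -0.24, -0.58 and -0.22 with the UHMK1 siRNA. U2AF1 changed by 0.35 log2 units more downward than U2AF2 (exact permutation test, two-sided, p = 0.3). The SDs of this difference were 0.22 in the controls and 0.20 after UHMK1 siRNA, and the groups overlapped. For SF1 against U2AF2 the gap between the changes was 0.86 (exact permutation p = 0.2), with 0.57, -0.19 and -0.38 in the controls and 1.17, 0.46 and 0.94 after UHMK1 siRNA. That value used the SF1 probe set without an Entrez gene ID, which may read another locus. With the SF1 probe set that carries the ID, the gap was 0.50 (exact permutation p = 0.1). Its values were -0.25, 0.31 and -0.05 in the controls and 0.39, 0.74 and 0.39 after UHMK1 siRNA, without overlap. This comparison was added after the values were seen and is not counted among the 5. The gap was 0.13 for RBM17 against SF3B1, -0.04 for PUF60 against SF3B1 and 0.20 for RBM39 against RBM23. With 3 arrays a group this exact permutation test cannot go below p = 0.1. Adjusted over the 5 pairs, the exact permutation p-values ran from 0.75 to 0.8.

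Among proteins outside the named set that carry one of the motifs, LEMD3 fell and ATXN1 rose. LEMD3, also called MAN1, is an inner nuclear membrane protein with a UHM that binds SMAD proteins. It read 11.45, 11.32 and 11.48 after scrambled siRNA and 10.33, 9.82 and 10.35 after UHMK1 siRNA, and the groups lay far apart. It fell by 1.25 (SE 0.18, adjusted p = 0.00701) and passed with any array left out (-1.34 to -1.08), but not over all probe sets (adjusted p = 0.0652). ATXN1, ataxin-1, carries a ULM and is known for the polyglutamine expansion of a spinocerebellar ataxia. It read 10.78, 10.60 and 10.53 against 11.51, 11.37 and 11.21, with no overlap. It rose by 0.73 (SE 0.15, adjusted p = 0.0386), but its call was lost with any array left out (0.65 to 0.80, adjusted p from 0.0680 to 0.147), with median centring (0.68, adjusted p = 0.0630), over all probe sets (adjusted p = 0.216) and with the mean of its probe sets (0.50, adjusted p = 0.218).

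The other 3 measured genes of this kind did not pass. HTATSF1, a UHM partner of SF3B1, stood at -0.23 (adjusted p = 0.537), and its groups overlapped. U2AF1L4, a relative of U2AF1 that can replace it, read 8.97, 8.98 and 8.88 after scrambled siRNA and 9.22, 9.13 and 9.04 after UHMK1 siRNA, a change of 0.19 (SE 0.14, adjusted p = 0.610) with no overlap. ZRSR2, the counterpart of U2AF1 for minor introns, stood at 0.05 (adjusted p = 0.938). Of the 5, 1 fell and 1 rose, with a median of 0.05, beside -0.02 over all genes tested. Falls made up 2.67% of all genes tested and 8.39% of those above 8. Rises made up 0.726% and 2.00%.

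**Figure D3:**
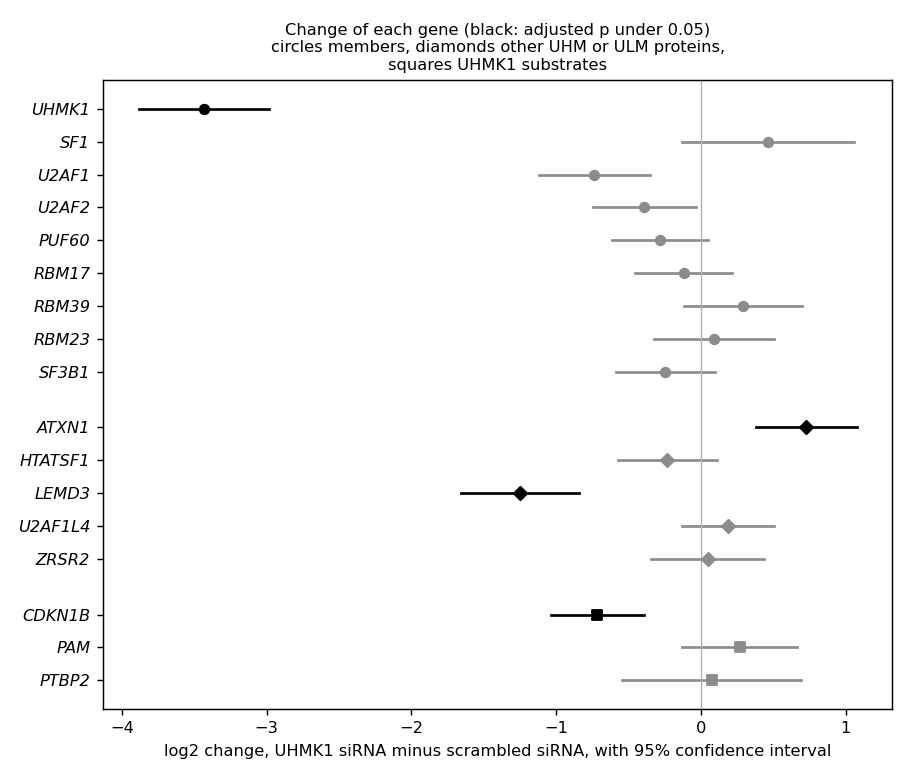
Log2 change (horizontal axis, UHMK1 siRNA minus scrambled siRNA) with its 95% confidence interval for the 9 genes (circles), 5 other UHM or ULM proteins (diamonds) and 3 UHMK1 substrates (squares), black where the adjusted p was under 0.05. UHMK1, LEMD3 and CDKN1B lie below 0 in black and ATXN1 above it.

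Among the other proteins of the U2 snRNP and the branch site, the genes that fell encode subunits of the SF3B complex, which holds SF3B1. Falls numbered 3, or 12%, and rises 0 among 25 measured genes. Falls made up 2.67% of all genes tested and 8.39% of those above 8. The list had 0 falls over all probe sets and with the replicate number as a block, where 2.14% and 5.39% of those above 8 fell. Negative changes made up 22 of the 25, with a median of -0.25 (-0.19 without UHMK1 siRNA array 2, where the genes above 8 had -0.05). Over all genes tested, 18210 of 33616 changes were negative. SF3B5, a small subunit of the complex, read 11.15, 10.98 and 10.93 after scrambled siRNA and 10.25, 10.29 and 10.13 after UHMK1 siRNA. It fell by 0.80 (SE 0.15, adjusted p = 0.0203), and the groups lay well apart. PHF5A, which sits in the branch point pocket beside SF3B1, read 10.92, 10.86 and 10.96 against 10.33, 9.90 and 10.02. It fell by 0.83 (SE 0.16, adjusted p = 0.0259), with no overlap.

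SF3B4, an RNA-binding subunit, read 14.28, 14.18 and 14.21 against 13.34, 13.40 and 13.68, also without overlap. It fell by 0.75 (SE 0.15, adjusted p = 0.0323). SNRPA1, the U2 A′ protein, stood at -0.55 (adjusted p = 0.0784). SF3A3 and DHX15, also outside the SF3B complex, both stood at -0.53 (adjusted p = 0.0983 and 0.115). These last 2 were named after their values were seen. SF3B2, SF3B3 and SF3B6, the other measured SF3B subunits, stood at -0.17, 0.03 and -0.0033 and did not pass, as SF3B1 did not. Each of the 3 falls was lost when single arrays were left out. SF3B5 passed only without UHMK1 siRNA array 2 (-0.83), PHF5A only without UHMK1 siRNA array 1 (-0.95) and SF3B4 only without UHMK1 siRNA array 3 (-0.85), and over the 6 omissions the adjusted p reached 0.0984, 0.105 and 0.132. Of the 25 genes, 10 had an unadjusted p under 0.05, beside 15.3% of all genes tested and 32.6% of those above 8. The number that fell was 6 (24%) with only genes of a mean log2 level of at least 6 tested, and 7 (28%) with a variance trend and robust estimation. Over all genes tested, falls went from 897 (2.67%) to 1570 (11.6% of 13547) and 1285 (3.82%) under the same settings. Among those above 8 the share went from 8.39% to 14.8% and 12.6%.

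A further list held 17 measured proteins of the U1 snRNP, of start-site selection and of the Sm core. The Sm core is shared with the U2 snRNP, so the list does not stand for the start of the intron alone. In limma 0 passed, and 6 had an unadjusted p under 0.05, beside the 15.3% of all genes tested and 32.6% of those above 8. The changes of all 17 were below 0, as were those of 18210 of all 33616 genes tested. The median of the 17 was -0.28. This compares with -0.02 over all genes tested and -0.11 over those above 8, and the median was -0.24 without UHMK1 siRNA array 2. The Sm protein SNRPD1 stood at -0.96 (adjusted p = 0.0721), from 12.76, 13.04 and 12.42 to 11.94, 11.31 and 12.10, with no overlap. The Sm proteins SNRPG, SNRPF and SNRPB stood at -0.57, -0.52 and -0.64 (adjusted p of 0.0855, 0.166 and 0.168). SNRPD1 and SNRPG passed with only genes of a mean log2 level of at least 6 tested (adjusted p = 0.0241 and 0.0243). They also passed with a variance trend and robust estimation (adjusted p = 0.0296 and 0.0181). These were 2 of the 17, beside falls in 11.6% and 3.82% of all genes tested under these settings. Among those above 8 the shares were 14.8% and 12.6%.

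Of 12 measured kinases and phosphatases that act on splicing proteins, 1 fell, or 8.33%, beside 2.67% of all genes tested and 8.39% of those above 8, and 0 rose. The median was -0.06 (0.03 without UHMK1 siRNA array 2 and -0.18 without array 3). PPP1CB, a catalytic subunit of protein phosphatase 1, read 13.34, 13.31 and 13.39 after scrambled siRNA and 12.34, 12.39 and 12.23 after UHMK1 siRNA. The arrays of each group lay close together and far from the other group. It fell by 1.03 (SE 0.14, adjusted p = 0.00512) and passed with any array left out (-1.06 to -0.98), but not over all probe sets (adjusted p = 0.0574). The phosphatase PPM1G stood at -0.36 (adjusted p = 0.288), the kinase DYRK1A at 0.35 (adjusted p = 0.308) and the SR protein kinase CLK4 at 0.39 (adjusted p = 0.419). PPP1CA and PPP1CC, the other catalytic subunits of the list, stood at -0.05 and -0.24 and did not pass. Both were named after their values were seen.

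**Figure D4:**
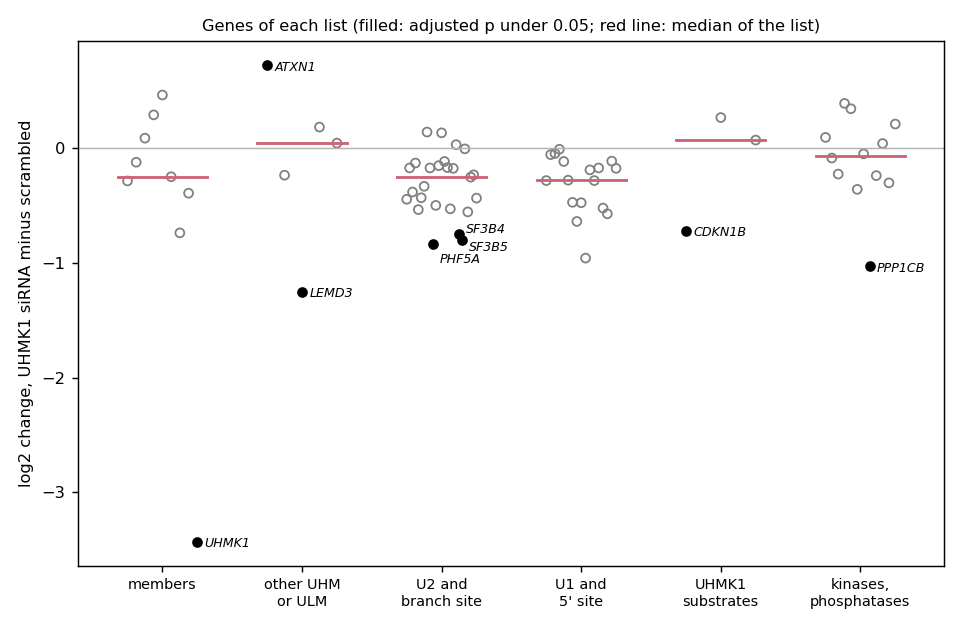
Log2 change (vertical axis, UHMK1 siRNA minus scrambled siRNA) of every measured gene in the 9 genes and the 5 lists around them, filled and named where the adjusted p was under 0.05, with the median of each list as a red line. All 17 genes of the U1 list, which includes the shared Sm proteins, lie below 0, and 0 of them are filled. Over all genes tested, 18210 of 33616 changes were below 0.

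Among UHMK1 substrates other than splicing factors of the named set, CDKN1B, the cell cycle inhibitor p27, read 10.48, 10.61 and 10.53 after scrambled siRNA and 9.79, 9.74 and 9.94 after UHMK1 siRNA. It fell by 0.72 (SE 0.14, adjusted p = 0.0292), without overlap. Its call did not survive the omission of any single array (-0.78 to -0.68, adjusted p from 0.0589 to 0.129). PAM, the peptide-amidating enzyme whose cytosolic tail the kinase phosphorylates, stood at 0.27 (adjusted p = 0.540). PTBP2, the neuronal polypyrimidine tract-binding protein, stood at 0.07 (adjusted p = 0.939), and its values after UHMK1 siRNA spread from 7.53 on array 2 to 8.70 on array 1. Of these 3, 1 fell and 0 rose, beside falls in 2.67% of all genes tested and 8.39% of those above 8. Their median of 0.07 moved between -0.17 and 0.38 with 1 array left out.

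The protein-coding genes whose 6 values followed those of UHMK1 most closely were CD164, UXS1, IER3, CCL20 and C1D. Likeness was the Euclidean distance over the 6 arrays between the deviations of each gene from its own scrambled siRNA mean, and it ran from 0.67 for CD164 to 1.02 for C1D. CD164, a sialomucin, read 14.16, 14.41 and 14.31 in the controls against 11.10, 11.12 and 10.84 with the UHMK1 siRNA. These 5 were ranked 2 to 6 by size of fall behind UHMK1, so the measure mostly reflected the gap between the groups. With 2 groups of 3 arrays it holds little else.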

How the data were processed

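Per the labels' protocols, biotinylated cRNA was hybridised to Affymetrix arrays. The deposited log2 values, with 2 decimals for 135750 probe sets, were made by the authors. Per the submitters' processing notes, RMA and Transcriptome Analysis Console 4.0 were used. No genome build is given in the sources. Values were used as deposited. The gene table gives 1 symbol to 36176 probe sets and several to 1119. Only the former were named, and their symbols were brought to RefSeq (GRCh38.p14) through the Entrez gene ID. A gene was read by its probe set with the highest mean over all 6 arrays.

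The groups were compared in R 4.3.3 with limma 3.58.1 (lmFit, eBayes, no covariates), with Benjamini-Hochberg adjustment over 33616 genes, after a test on simulated data. No filter on low values was used, and all 9 genes have a mean of at least 6. The members, lists and alternatives were chosen with earlier results of these data known. Named in the text are every member, every measured other UHM or ULM protein and UHMK1 substrate, the called genes or the 4 of smallest p of the other lists, and the 5 genes most like UHMK1. Other names are said to be chosen after their values were seen, or belong to the SF3B complex or the cell type markers. Of the list genes, 8 had no probe set with 1 symbol (such as STMN1 and PTBP1) and were not analysed here. The 10 other settings were further quantile normalization, cyclic loess, median centring, a limit on dim genes, the mean of a gene's probe sets, probe sets with an Entrez gene ID first, all probe sets, a variance trend with robust estimation, array weights and a replicate block, beside leaving out each array. The number of arrays limits the precision.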

Additional observations from a re-analysis of the deposited data

How the results depend on the processing

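The fall of UHMK1 kept its direction and call under all 10 other settings (-3.48 to -3.38) and with each of the 6 arrays left out (-3.60 to -3.30). The number of genes called was 1141 with 6 arrays and no other step. It was 2087 with only genes of a mean log2 level of at least 6 tested, 296 over all probe sets, 722 with the replicate number as a block, and 389 to 899 with 1 array left out. The limit on dim genes and the use of all probe sets change the number of tests adjusted for. They also change the set from which limma pools its variance. The SE of the first U2AF1 probe set was 0.171 over the genes tested and 0.187 over all probe sets. The cause of the differences in number was not tested.

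Of the 9 genes, 1 was called, and 2 were called after cyclic loess normalization (U2AF1 at -0.71), with the limit on dim genes (-0.74), with a variance trend and robust estimation (-0.74) and with array weights (-0.65). The count was 1 with any array left out. With 1 array left out, RBM23 ran from -0.068 (without scrambled siRNA array 3) to 0.24, and SF3B1 stood at 0.15 as the mean of its probe sets, 1 of which has no Entrez gene ID. U2AF1 had an adjusted p = 0.109 with the replicate block, and the block changed no call among the 9 genes.

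In the 5 lists, of 5, 25, 17, 3 and 12 measured genes, 7 genes were called. Of all genes tested 3.39% were called, and of those above 8, 8.39% fell and 2.00% rose. The lists had 12 calls with the limit on dim genes and 13 with a variance trend and robust estimation. Calls over all genes tested went from 1141 to 2087 and 1685 under the same settings. The lists had 0 over all probe sets, where UHMK1 remained called, and 2 to 3 with 1 array left out. With the replicate block they had 2 (LEMD3 and PPP1CB, while ATXN1 had an adjusted p = 0.0676). The labels do not say that arrays with the same number share a culture or day, so the numbers were not taken as pairs. Deviations from the group means of arrays with the same number correlated at 0.05, 0.03 and -0.04 across genes. Not every array correlated best with its own number: scrambled siRNA array 1 did so with UHMK1 siRNA array 3 (0.07, against 0.05). Low correlations would not exclude a shared culture.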
